A study of Mus musculus with 10 samples.

Results

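The 10 genes described here encode factors that remove the cap of messenger RNA (mRNA) or gather repressed mRNA in processing bodies (P-bodies). They are Dcp2, Dcp1a, Dcp1b, Edc3, Edc4, Patl1, Ddx6, Lsm14a, Lsm14b and Xrn1. They were taken by gene symbol from the deposited count table, which held 25239 genes, and all 10 were in the table and passed the filter on low counts. RNA-seq had been run on testis RNA of C57BL/6 mice at postnatal days 7 and 4 (P7 and P4), in a series that sets Lsm7-null germ cells against wild type. The samples labelled cKO carry the genotype Lsm7-flfl-stra8, which names Stra8, a gene switched on in germ cells that differentiate or enter meiosis, and the others the genotype WT. The labels name no agent and do not say which promoter drives the deletion. There were 3 P7 cKO, 2 P7 WT, 3 P4 cKO and 2 P4 WT libraries. The labels name the cell type as germ cell, while the protocol describes total RNA of testis with no sorting step, so in these bulk samples fewer cells of a type and less RNA per cell cannot be told apart. The labels do not say that libraries came from separate animals, so the p-values reflect the variation among the libraries as sequenced, part of which may be technical.

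An mRNA that has lost its poly(A) tail is bound near its end by the cytoplasmic LSm ring, of which Lsm7 is a subunit, together with the Pat1 protein. The ring and Pat1 recruit the decapping complex, in which Dcp2 cuts the cap with the help of Dcp1 and the enhancers Edc3 and Edc4, and the exonuclease Xrn1 then degrades the uncapped RNA. The helicase Ddx6 and the Lsm14 proteins bind the same machinery, repress translation and are needed to form P-bodies. In male germ cells of the mouse, the repressor Nanos2 is found in P-bodies. Despite their name, the Lsm14 proteins are not part of the ring.

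The libraries held 28.8 to 41.8 M reads, and each member had between 478 and 13547 reads in every library. The pair of P7 WT libraries agreed to within about the counting noise (chi-square of 1.98 per degree of freedom, where other pairs within a group gave 23.5 to 122.9), so they were summed and counted as 1 sample. P7 cKO library 1 stood apart from P7 cKO libraries 2 and 3 (117.3 and 122.9, against 23.5 between those). The 10 germ cell markers, such as Ddx4 and Dazl, were all read in every group and summed to 935 to 1018 CPM (a gene's reads in each 1 M reads of a library, after TMM scaling) in P7 cKO, 1564 in P7 WT, 202.2 to 218.9 in P4 cKO and 255 to 355 in P4 WT. The 10 Sertoli cell markers summed to 3552 to 4278 CPM in P7 cKO, 3779 in P7 WT, 4496 to 5324 in P4 cKO and 2744 to 3632 in P4 WT, so these somatic cells were also in the RNA. Some somatic markers moved with the genotype at P4, where 4.84% of all genes rose in cKO and 4.13% fell. Those that rose were 4 of 10 Sertoli (median log2 0.68), 3 of 8 Leydig (1.26) and 3 of 7 macrophage markers (0.97). So did 3 of 8 peritubular and stromal markers (0.64), and none in these lists fell. Of 6 endothelial markers (0.10) and the 2 erythroid markers tested (1.55), 0 rose or fell. The Leydig sums overlapped, at 1212 to 1408 CPM in P4 cKO and 1146 to 1389 CPM in P4 WT. Of 10 germ cell markers 2 fell at P4 (-0.41). At P7 the median log2 fold change of the 10 for cKO against WT was -0.31, beside 0.08 for all genes. The lone P7 WT sample, on which every P7 comparison with WT and the stage comparison in WT rest, stood apart in the spermatid markers. The 8 spermatid markers summed to 0.52 CPM in P7 WT, where 5 were at 0 (Prm1, Prm2, Tnp2, Smcp and Spz1). Their sums were 5.93 to 25.7 CPM in P7 cKO, 4.165 to 7.84 CPM in P4 cKO and 9.755 to 13.7 CPM in P4 WT. The 6 erythroid markers summed to 2.19 to 3.16 CPM in P7 cKO against 16.4 CPM in P7 WT. At P4 they summed to 4.37 to 19.4 CPM in cKO, a range that held the P7 WT value, and 5.04 to 6.155 CPM in WT. Of the 6, 4 globin genes were at 0 in every group. The part of these cell types in the members' values was not tested. Lsm7 itself had 45.2, 26.0 and 20.3 CPM in P7 cKO against 33.3 CPM in P7 WT, and 44.9, 50.5 and 43.6 CPM in P4 cKO against 36.2 and 25.7 CPM in P4 WT. Its log2 fold change was -0.13 at P7 (adjusted p = 0.835) and 0.58 at P4 (adjusted p = 0.215). With offsets for exon length and GC content it was -1.11 at P7 (adjusted p = 0.117) and 0.24 at P4 (adjusted p = 0.431). Exons are not counted apart in the table, so this level does not check the genotype labels.

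Per kilobase of exon, the scale on which levels of different genes can be set side by side, the members fell into a high and a low set that was much the same in the 4 groups. Lsm14a, Lsm14b, Ddx6 and Edc4, a repressor pair, a helicase and a scaffold, were the 4 highest in P7 cKO, P4 cKO and P4 WT. In P7 WT Patl1 took the place of Edc4 among them. The scale does not correct for GC content, with which fold changes at P7 trended across all genes. In P7 cKO, Lsm14b led with 63.2 ± 4.8 CPM per kb (SD, n = 3), followed by Lsm14a with 43.6 ± 2.2 and Ddx6 with 38.9 ± 2.3. In P7 WT, Lsm14a had 78.3, Lsm14b 77.6 and Ddx6 57.1 CPM per kb. In P4 cKO, Lsm14a led with 56.6 ± 10.7 CPM per kb, followed by Ddx6 with 46.2 ± 9.0 and Lsm14b with 43.9 ± 0.8 (SD, n = 3), and the ranges of neighbours among these 3 overlapped. In P4 WT, Lsm14b had 46.0 ± 1.9 CPM per kb and Lsm14a 41.5 ± 9.6 (SD, n = 2), with overlapping ranges. The catalytic subunit Dcp2 was the lowest in P4 cKO (5.47 ± 0.97 CPM per kb) and in P4 WT (3.87 ± 0.02), with the exonuclease Xrn1 next to it. In P7 cKO, Xrn1 was lowest with 6.40 ± 1.08 CPM per kb. The ranges of Dcp2 and Xrn1 overlapped in P7 cKO and P4 cKO and did not in P4 WT. Dcp1b was lowest in P7 WT, at 5.19 CPM per kb. Between the high and the low set, the step down to Dcp1a at P4 lay outside the spread in both genotypes.

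**Figure D1:**
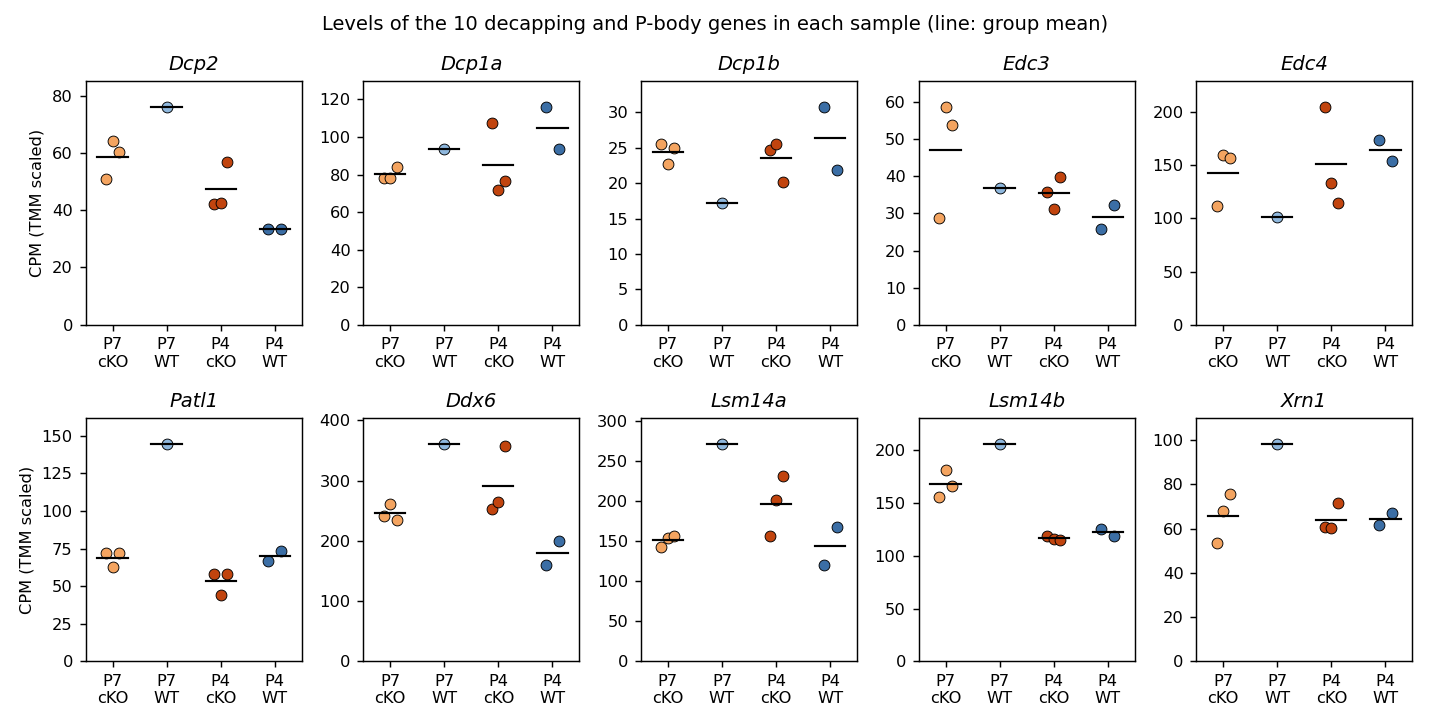
Level of each of the 10 genes in every sample, in CPM scaled with TMM factors (y axis, starting at 0), with the groups P7 cKO, P7 WT, P4 cKO and P4 WT from left to right; points are samples and lines group means. The P7 WT sample is the highest of all samples for Dcp2, Patl1, Ddx6, Lsm14a, Lsm14b and Xrn1, at 144.7 CPM for Patl1 against 44.1 to 73.2 CPM in the other 8 samples. The share of all genes that are highest in that sample was not counted.

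The first question was which members differ between the genotypes at P7. Patl1 and Lsm14a fell in P7 cKO, and no member rose. Patl1 (chromosome 19, 11912399 to 11945096, GRCm38), the mouse Pat1 protein that bridges the LSm ring and the decapping complex, had 72.0, 62.9 and 72.2 CPM in P7 cKO against 144.7 CPM in P7 WT. Every cKO sample lay at about the same level, well below WT. The share of all genes with every cKO sample on 1 side of the lone WT sample was not counted. The log2 fold change was -1.07 (SE 0.21, edgeR adjusted p = 0.0102, n = 3 and 1). Lsm14a (chromosome 7, 34344144 to 34389705), which binds Ddx6 and represses translation, had 142.2, 154.2 and 156.5 CPM in P7 cKO against 271.3 CPM in P7 WT. All 3 cKO samples were again below WT, and the log2 fold change was -0.85 (SE 0.25, adjusted p = 0.0379).

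So 2 of 10 members fell at P7, where 9.72% of the 18419 genes tested fell, and 0 rose, where 7.26% of genes rose (17% in either direction). The median log2 fold change of the members was -0.34, and that of all genes 0.08. With offsets for exon length and GC content these medians were 0.18 and 0.05. Among the members that did not pass, Ddx6, the DEAD-box helicase of P-bodies, had 240.5, 261.6 and 234.3 CPM in P7 cKO against 361.0 CPM in P7 WT (log2 -0.56, 95% interval -1.07 to -0.04, adjusted p = 0.126). Xrn1 had 53.7, 68.2 and 75.5 CPM in P7 cKO against 98.3 CPM in P7 WT (log2 -0.58, interval -1.06 to -0.10, adjusted p = 0.0915). For both genes every cKO sample was below WT, an order whose share over all genes was not counted. The decapping enzyme and its activators showed smaller or opposite values, with Dcp2 at -0.38 (adjusted p = 0.271), Dcp1a at -0.22 (0.553), Dcp1b at 0.51 (0.199), Edc3 at 0.35 (0.508) and Edc4 at 0.49 (0.313). Edc3 showed the widest spread, with 28.8 CPM in P7 cKO sample 1 and 58.7 and 53.9 CPM in samples 2 and 3, against 36.9 CPM in WT, which lay between them. Lsm14b, the paralog of Lsm14a, was at -0.30 (adjusted p = 0.293).

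With offsets for exon length and GC content together, no member passed at P7. Patl1 was then at -0.69 (adjusted p = 0.166) and Lsm14a at -0.44 (adjusted p = 0.412), and only 2 of the 18419 genes were called. A fit of the P7 groups alone, with 1 WT sample and 2 residual degrees of freedom, called 0 genes, and 0 members with it. Lsm14a also missed the threshold without P7 cKO library 2 (-0.86, adjusted p = 0.0853), P7 cKO library 3 (-0.87, 0.0605) or P4 cKO library 2 (-0.84, 0.0643).

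**Figure D2:**
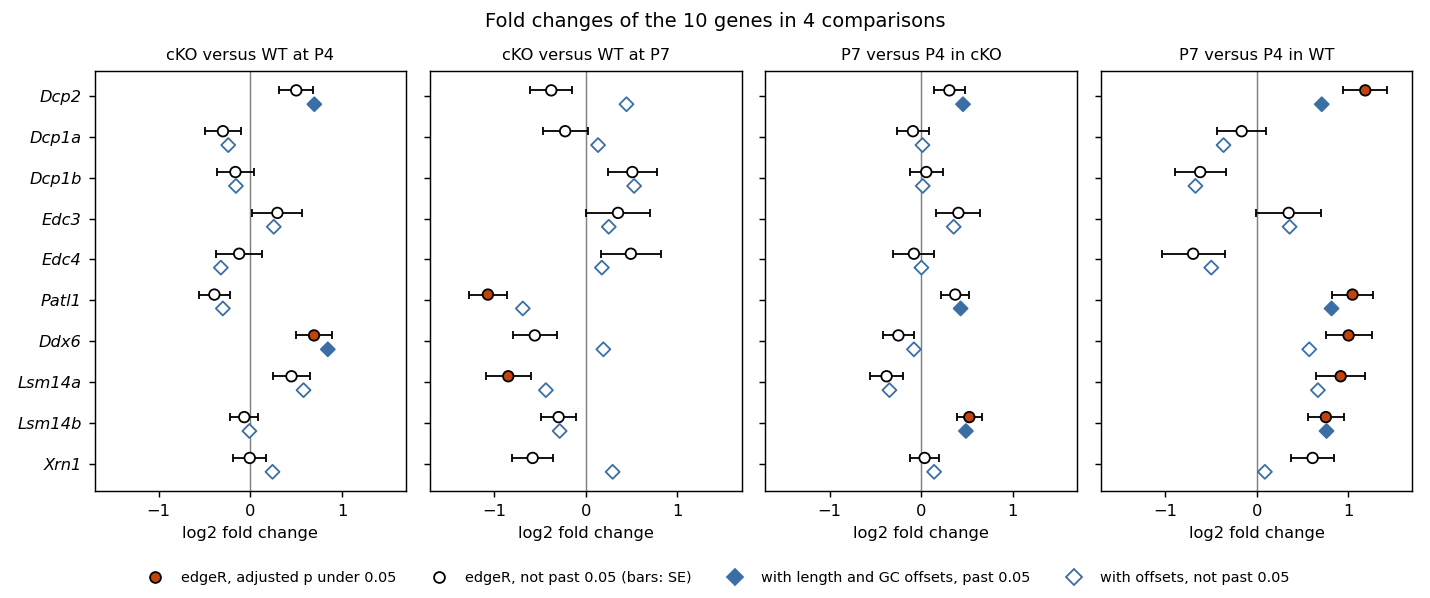
Log2 fold change of each gene (x axis) in the 4 comparisons, with circles and SE bars for edgeR's fit and diamonds for the fit with length and GC offsets; filled symbols passed an adjusted p of 0.05. In the comparison of cKO with WT at P7, the circles of Patl1 (-1.07) and Lsm14a (-0.85) are filled and no diamond is, and the diamonds of Dcp2, Dcp1a, Ddx6 and Xrn1 lie on the other side of 0 from their circles.

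At P4 the same comparison gave a different set. Ddx6 (chromosome 9, 44604892 to 44640731) had 252.8, 265.3 and 356.9 CPM in P4 cKO against 160.4 and 199.9 CPM in P4 WT. The groups did not overlap, and Ddx6 rose by 0.70 on the log2 scale (SE 0.20, edgeR adjusted p = 0.0497, n = 3 and 2). It was the 1 member of 10 that rose, where 4.84% of all genes rose, and 0 fell, where 4.13% fell (8.96% in either direction). The median of the members was -0.04 and that of all genes 0.00. With length and GC offsets these medians were 0.12 and -0.02. The call for Ddx6 lay at the threshold. It was lost without any 1 of the 5 P4 libraries (log2 0.51 to 0.86, adjusted p = 0.0617 to 0.370), with RLE factors (0.67, 0.0537), library totals as the scale (0.53, 0.0854) or a minimum count of 50 (0.65, 0.0530), and it held with length and GC offsets (0.85, 0.0435). The P7 cKO libraries entered through the shared estimate of the spread. The adjusted p was 0.0178 without P7 cKO library 1, and 0.0685 and 0.0687 without libraries 2 and 3.

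Dcp2 (chromosome 18, 44380500 to 44424969), the decapping enzyme, had 42.3, 42.7 and 56.9 CPM in P4 cKO against 33.3 and 33.5 CPM in P4 WT. All cKO samples were above both WT samples, yet the log2 fold change of 0.50 (SE 0.19, adjusted p = 0.108) did not pass. It did pass with length and GC offsets (0.70, adjusted p = 0.0483) and without P7 cKO library 1 (0.50, 0.0449). Patl1 lay the other way, with 58.0, 44.1 and 58.0 CPM in P4 cKO against 67.0 and 73.2 CPM in P4 WT (log2 -0.39, interval -0.77 to -0.02, adjusted p = 0.156). Groups that do not overlap were common at P4, where 24.1% of all genes had every cKO sample above every WT sample and 25.6% every cKO sample below. Among the members, Dcp2 and Ddx6 were above and Patl1 below. Lsm14a had 156.9, 200.8 and 230.8 CPM in P4 cKO against 120.3 and 167.1 CPM in P4 WT, with overlapping groups (0.45, upper bound of the interval 0.90, adjusted p = 0.172).

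The other 6 members were at -0.30 to 0.30 in P4 cKO against P4 WT, and none passed. Xrn1 (chromosome 9, 95954760 to 96057806), with 60.5, 60.4 and 71.4 CPM in P4 cKO against 61.8 and 67.0 CPM in P4 WT, was at -0.01 (interval -0.40 to 0.39). Lsm14b was at -0.07 (interval -0.40 to 0.26). Dcp1a, with 107.5, 71.9 and 76.3 CPM in P4 cKO against 115.9 and 93.8 CPM in P4 WT, had 1 cKO sample inside the WT range and the others under it (log2 -0.30, adjusted p = 0.327). Edc4, the scaffold of the decapping complex, ran from 114.1 to 204.6 CPM in P4 cKO against 154.0 and 173.9 CPM in P4 WT (-0.12, adjusted p = 0.773).

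Between the stages in WT, where P7 was represented by 1 sample and P4 by 2, Dcp2, Patl1, Ddx6, Lsm14a and Lsm14b rose. Dcp2 had 76.0 CPM in P7 WT against 33.3 and 33.5 CPM in P4 WT, a log2 fold change of 1.19 (SE 0.24, edgeR adjusted p = 0.00704). Patl1 had 144.7 CPM in P7 WT against 67.0 and 73.2 CPM in P4 WT (1.05, SE 0.22, adjusted p = 0.00905). For both, the P7 sample lay far above the P4 samples, an order that was not counted over all genes. Ddx6 had 361.0 CPM in P7 WT against 160.4 and 199.9 CPM in P4 WT (1.00, SE 0.25, adjusted p = 0.0177), and Lsm14a had 271.3 CPM against 120.3 and 167.1 CPM (0.92, SE 0.27, adjusted p = 0.0309). Lsm14b (chromosome 2, 180024987 to 180035461), a repressor studied in mouse oocytes, had 205.6 CPM in P7 WT against 125.4 and 118.3 CPM in P4 WT (0.76, SE 0.20, adjusted p = 0.0214).

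In all, 5 of 10 members rose in WT, where 11.8% of all genes rose, and 0 fell, where 9.97% fell (21.8% in either direction). The median of the members was 0.68 and that of all genes -0.03. Xrn1 lay at 0.61 (adjusted p = 0.0848) and Edc3 at 0.35 (adjusted p = 0.503). On the other side, Dcp1b had 17.2 CPM in P7 WT against 30.7 and 21.9 CPM in P4 WT (-0.62, interval -1.22 to -0.01, adjusted p = 0.131), and Edc4 had 101.4 CPM in P7 WT against 173.9 and 154.0 CPM in P4 WT (-0.69, adjusted p = 0.164). Both P7 values were below the P4 values without passing the test, and this order was not counted over all genes. Dcp1a was at -0.16 (adjusted p = 0.683).

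With length and GC offsets, Dcp2 (0.71, adjusted p = 0.0417), Patl1 (0.82, 0.0210) and Lsm14b (0.76, 0.0178) still passed in WT, while Ddx6 (0.57, adjusted p = 0.104) and Lsm14a (0.67, 0.0758) did not. Without P4 WT library 1 the 1 call left was that of Dcp2.

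In the cKO samples, with 3 at each stage, the same comparison gave 1 rise. Lsm14b had 155.6, 180.9 and 165.8 CPM in P7 cKO against 118.7, 115.4 and 115.0 CPM in P4 cKO. The P4 samples were nearly level and all P7 samples lay above them, with a log2 fold change of 0.52 (SE 0.14, edgeR adjusted p = 0.0139). Thus 1 of 10 members rose, where 14.5% of all genes rose, and 0 fell, where 14.7% fell (29.2% in either direction). The median of the members was 0.05 and that of all genes 0.00. Lsm14b missed the threshold without P4 cKO library 2 (0.52, adjusted p = 0.0570) or P7 cKO library 2 (0.47, 0.0565).

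Patl1, with 72.0, 62.9 and 72.2 CPM in P7 cKO against 58.0, 44.1 and 58.0 CPM in P4 cKO, was higher at P7 in every sample and did not pass (0.37, interval 0.03 to 0.71, adjusted p = 0.0934). It passed with length and GC offsets (0.43, adjusted p = 0.0334), as did Dcp2 (0.46, 0.0319), which was at 0.31 (adjusted p = 0.185) without them. Lsm14a ran downwards, with 142.2, 154.2 and 156.5 CPM in P7 cKO against 156.9, 200.8 and 230.8 CPM in P4 cKO (-0.38, adjusted p = 0.141). All of its P7 values were under the P4 values, the closest pair being 156.5 and 156.9 CPM. Such separation was seen upwards in 22.9% and downwards in 23.2% of all genes, and among the members upwards in Patl1 and Lsm14b and downwards in Lsm14a. Ddx6 was at -0.25 (adjusted p = 0.304), Edc3 at 0.41 (0.229), Dcp1a at -0.09, Dcp1b at 0.06, Edc4 at -0.08 and Xrn1 at 0.04. Edc3 passed without P7 cKO library 1 (0.66, adjusted p = 0.00784), the sample in which it had 28.8 CPM.

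The comparisons at the 2 stages and in the 2 genotypes share samples, so the difference between them was tested itself, as the genotype by stage interaction. It is the cKO over WT fold change at P7 minus that at P4. No member passed, nor did any of the 18419 genes (0% called by edgeR), although 4619 genes had an unadjusted p under 0.05, 4 of the members among them. The interaction values of Lsm14a (-1.29, SE 0.32) and Ddx6 (-1.25, SE 0.31), both with an adjusted p of 0.0715, were the lowest of the members. Lsm14a was thus at -0.85 at P7 and 0.45 at P4, and Ddx6 at -0.56 and 0.70. DESeq2 called 1665 genes, with Ddx6 (-1.23, adjusted p = 0.0119) and Lsm14a (-1.27, 0.0135) among them, and limma-voom called 0. Without P7 cKO library 1, both passed in edgeR's fit (adjusted p = 0.0312 for Ddx6 and 0.0327 for Lsm14a). With length and GC offsets neither did (-0.65, adjusted p = 0.226 and -1.02, 0.161). Dcp2 was at -0.88 (adjusted p = 0.112) and Patl1 at -0.68 (0.161), while Dcp1b (0.67, 0.226) and Edc4 (0.61, 0.358) lay on the other side of 0. The median of the members was -0.40 and that of all genes 0.07.

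Within a library, the ratio of 2 paralogs needs no scaling factor. Lsm14a and Lsm14b, per kilobase of exon, stood at ratios of 0.70, 0.65 and 0.72 in P7 cKO against 1.01, 1.33 and 1.54 in P4 cKO. In P7 cKO, Lsm14b was thus the more abundant of the pair in all 3 samples, and in P4 cKO Lsm14a was. The log2 difference of the ratio between P7 and P4 was -0.88, and an exact two-sided permutation test gave p = 0.1, the smallest that its 20 arrangements allow, and 0.4 when adjusted over the 4 ratio tests made. In WT the ratio was 1.01 at P7, against 0.73 and 1.08 at P4. Between P4 cKO and P4 WT the log2 difference was 0.52 (exact permutation p = 0.4, with 0.2 the smallest possible of 10 arrangements). Dcp1a exceeded Dcp1b in every sample, by ratios of 1.80, 2.02 and 1.99 in P7 cKO, 3.21 in P7 WT, 2.57, 1.66 and 2.23 in P4 cKO, and 2.22 and 2.53 in P4 WT. Neither test of this ratio passed (exact permutation p = 0.5 for P7 against P4 in cKO and 1 for cKO against WT at P4).

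**Figure D3:**
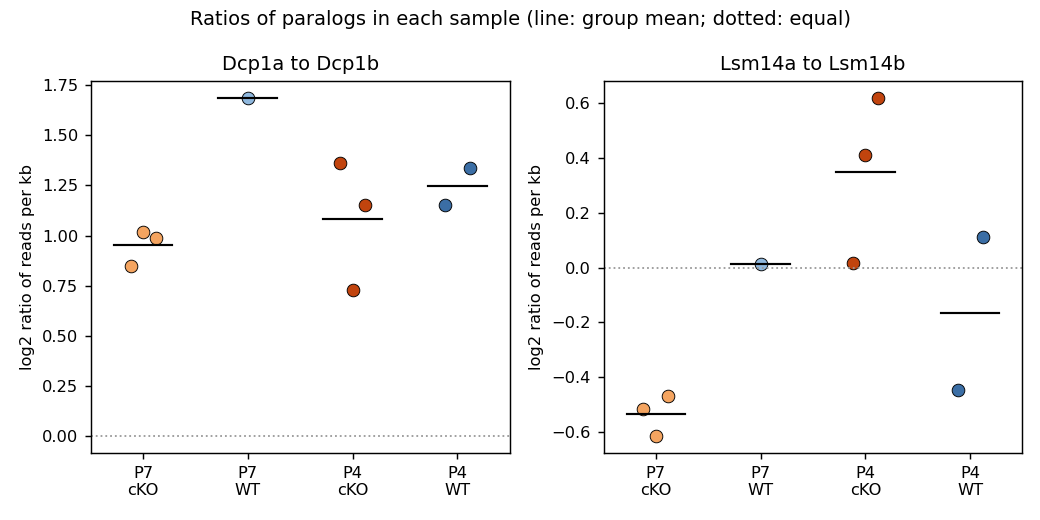
Ratio of Dcp1a to Dcp1b and of Lsm14a to Lsm14b in each sample, as log2 of reads per kilobase of exon (y axis), with the groups P7 cKO, P7 WT, P4 cKO and P4 WT from left to right; points are samples, lines group means, and the dotted line marks equal levels. For Lsm14a to Lsm14b the 3 P7 cKO samples lie between -0.62 and -0.47 and the 3 P4 cKO samples between 0.02 and 0.62.

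The sequences upstream of Patl1, Lsm14a and Lsm14b are shown because Patl1 and Lsm14a were the members that fell at P7 in cKO and Lsm14b is the paralog that rose between the stages in cKO. Each is the 250 bases before the RefSeq start of the gene on its own strand (GRCm38.p6), with CCAAT and GGGCGG, read on either strand, in capitals.
Patl1: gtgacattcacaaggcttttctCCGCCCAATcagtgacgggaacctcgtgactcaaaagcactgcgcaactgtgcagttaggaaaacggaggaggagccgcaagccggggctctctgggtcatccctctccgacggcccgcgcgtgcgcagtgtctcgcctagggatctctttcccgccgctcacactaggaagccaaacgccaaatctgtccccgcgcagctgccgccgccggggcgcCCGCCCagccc
Lsm14a: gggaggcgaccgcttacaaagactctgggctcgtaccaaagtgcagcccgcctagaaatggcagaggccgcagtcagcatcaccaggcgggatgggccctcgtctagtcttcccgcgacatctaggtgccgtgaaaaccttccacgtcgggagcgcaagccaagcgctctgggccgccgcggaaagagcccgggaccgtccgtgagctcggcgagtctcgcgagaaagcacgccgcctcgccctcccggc
Lsm14b: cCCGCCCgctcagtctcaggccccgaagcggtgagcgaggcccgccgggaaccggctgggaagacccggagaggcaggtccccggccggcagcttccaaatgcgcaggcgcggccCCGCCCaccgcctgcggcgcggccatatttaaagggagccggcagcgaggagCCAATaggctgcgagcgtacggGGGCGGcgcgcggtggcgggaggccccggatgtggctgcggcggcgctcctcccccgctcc
They lie at chr19:11912149-11912398 on the plus strand, chr7:34389706-34389955 on the minus strand and chr2:180024737-180024986 on the plus strand. Patl1 held CCAAT in 1 place, which overlaps a GGGCGG match on the other strand, and GGGCGG in 2 places. Lsm14b held CCAAT in 1 place and GGGCGG in 3, and Lsm14a neither. Of 32851 promoters of this length in the RefSeq table, 33.8% held CCAAT and 32.7% GGGCGG. None of the 3 windows held TATAAA (12.4% of promoters) or CACGTG (6.02%). All 3 were rich in CG dinucleotides, with 24 in Patl1, 28 in Lsm14a and 34 in Lsm14b against a median of 6 over all promoters. Entries were matched for 8 of the 10 members by symbol, and Dcp2 and Ddx6 had none.

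The members also differ in base composition and in length, and across all genes the fold changes at P7 trended with both. Exon length ran from 2.65 kb for Lsm14b to 10.3 kb for Xrn1. In the longest transcript, GC content was 41.9% for Xrn1, 42.7% for Dcp2 and 43.4% for Ddx6, in the lowest quintile of all genes, and 46.0% for Lsm14a and 47.2% for Patl1, in the second quintile. It was 48.3% for Dcp1a, 49.8% for Lsm14b, 50.4% for Dcp1b and 51.6% for Edc3, in the next quintile, and 55.5% for Edc4, in the highest. In the longest coding transcript, the untranslated region after the coding sequence took 84.0% for Dcp2, 70.2% for Edc3, 70.1% for Ddx6 and 67.4% for Dcp1a. It took 41.2% to 48.7% for Patl1, Lsm14a, Lsm14b, Dcp1b and Xrn1, and 7.59% for Edc4. The Edc3 transcript has 5708 bases, more than the 3342 exon bases counted for the gene. The coding transcript of Dcp1b has 52.5% GC, so it is not the one that gave its GC content above. The untranslated share did not follow the order of GC content, since Xrn1, lowest in GC, was at 48.7%. For cKO against WT at P7, the median log2 fold change of all genes was -0.75, -0.32, 0.04, 0.41 and 0.79 by quintile of GC content, lowest GC first. For P7 against P4 in WT it ran the other way, at 0.53, 0.19, -0.01, -0.25 and -0.52. At P4 the medians for cKO against WT spanned -0.18 to 0.22, and for P7 against P4 in cKO -0.06 to 0.03. For cKO against WT at P4, the lowest-GC members Ddx6, Dcp2 and Xrn1 were at 0.70, 0.50 and -0.01, beside their quintile's -0.18. Lsm14a (0.45) and Patl1 (-0.39) stood beside -0.12, and Edc4 (-0.12) beside 0.22. In the middle quintile, Dcp1a, Lsm14b, Dcp1b and Edc3 were at -0.30, -0.07, -0.16 and 0.30, beside -0.02. The members were not tested against this trend. By quintile of exon length, shortest first, the medians at P7 were 0.51, 0.31, 0.07, -0.11 and -0.33, and for P7 against P4 in WT they spanned -0.23 to 0.19. Beside the GC medians, Patl1 (-1.07) and Lsm14a (-0.85) at P7 lay below their quintile's -0.32, Ddx6 (-0.56), Xrn1 (-0.58) and Dcp2 (-0.38) above theirs of -0.75, and Edc4 (0.49) below its 0.79. The offsets correct length and GC content together, so the part of each in a member's value was not tested.

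**Figure D4:**
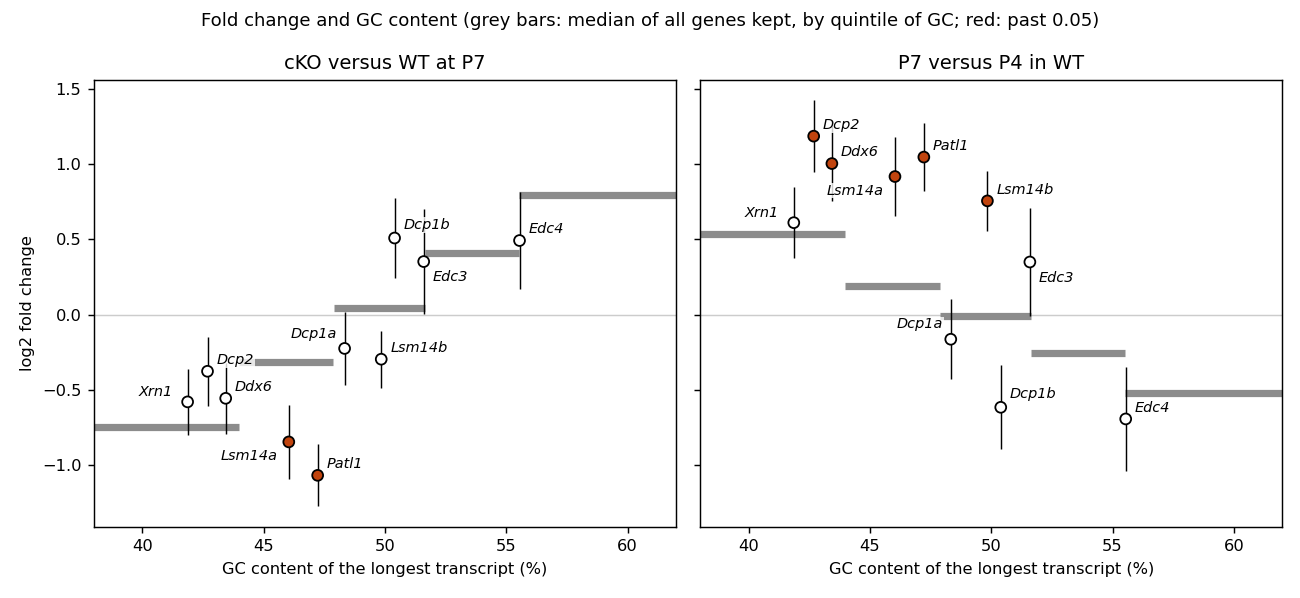
Log2 fold change (y axis, bars SE) of the 10 genes against the GC content of their longest transcript (x axis, percent), for cKO against WT at P7 on the left and P7 against P4 in WT on the right; grey bars are the medians of all genes by quintile of GC content and filled points passed an adjusted p of 0.05. The medians span -0.75 to 0.79 across the quintiles on the left and 0.53 to -0.52 on the right, and Patl1 lies at -1.07 on the left and 1.05 on the right.

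Partners of the members were followed through 7 lists of related factors, all of whose genes were tested. No list was tested against the share of all genes called, which at P7 was 7.26% up and 9.72% down in cKO. At P7, the stress granule genes Tia1 (log2 -1.62, SE 0.22), Caprin1 (-1.11) and G3bp2 (-0.86) fell in cKO, 3 of 10 in their list. Tia1 had 167.0, 129.1 and 158.7 CPM in P7 cKO against 465.1 CPM in P7 WT. Among the translational repressors of P-bodies, the RNA-binding Pum2 (-0.98, SE 0.21) and Cpeb1 (-1.05), which binds polyadenylation elements, fell, and 0 of 12 rose. Of 11 AU-rich element and other decay adaptors, the Roquin genes Rc3h1 (-0.97) and Rc3h2 (-1.26) fell. Of 11 other decapping and cap hydrolysis factors, Pnrc2 (-1.08), a partner of Dcp1a, and Nudt12 (-1.05), a hydrolase of NAD caps, fell, while Dxo (1.05) and Wtip (0.95) rose. The exosome subunit Exosc5 (1.19) and the helicase Skiv2l (0.96) rose, 2 of 17 in the list of Xrn2 and the factors of decay from the tail end. Lsm4 (1.15) rose as 1 of 7 ring genes. None of 8 microRNA silencing factors passed. No gene named here passed at P7 once length and GC offsets were applied (adjusted p = 0.166 for Tia1 to 0.989 for Dxo).

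At P4, 3 of 8 microRNA silencing factors fell in cKO and 0 rose, where 4.13% of all genes fell and 4.84% rose. They were the scaffold genes Tnrc6a (-0.93, SE 0.20) and Tnrc6c (-0.86, SE 0.17) and the Argonaute gene Ago4 (-0.71, SE 0.19). Tnrc6a had 291.8, 239.4 and 219.4 CPM in P4 cKO against 555.5 and 401.2 CPM in P4 WT, without overlap. Ago2 (0.41, adjusted p = 0.350) and Tnrc6b (0.27, adjusted p = 0.453) lay on the other side of 0, and the median of the list was -0.40. Patl2, the paralog of Patl1 known from mouse oocytes, fell as 1 of 11 other decapping factors, with 1.13, 1.03 and 0.66 CPM in P4 cKO against 3.08 and 1.80 CPM in P4 WT (-1.38, SE 0.36). Of the repressors, Cpeb1 (-1.34) fell and the cap-binding Eif4e2 (0.82) rose. The stress granule gene Tial1 (-0.73) fell as 1 of 10, and Exosc5 (0.79) and Lsm4 (0.95) each rose as the 1 call of their lists. No decay adaptor of 11 passed without offsets. With length and GC offsets, the adaptor Rc3h1 rose (0.81, adjusted p = 0.0416), against 0.55 (adjusted p = 0.0906) without. Of the genes called without offsets, Tnrc6c, Cpeb1 and Eif4e2 still passed with them, and the others named here did not (adjusted p = 0.0565 for Patl2 to 0.224 for Lsm4).

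Between the stages, germ cell repressors of the P-body list rose in cKO, where 14.5% of all genes rose and 14.7% fell. The 4 of 12 that rose were Dnd1 (2.39), Cpeb1 (2.04), Nanos2 (2.51) and Nanos3 (1.34), RNA-binding proteins of germ cells apart from the broadly used Cpeb1. Nanos2 had 2.00, 2.01 and 1.82 CPM in P7 cKO against 0.35, 0.41 and 0.26 CPM in P4 cKO. Over the same samples the 10 germ cell markers, which hold Nanos3, all rose, and the part of germ cell content in these changes was not tested. Patl2 (2.04) and Dxo (0.78) rose and Limd1 (-0.42) fell among the other decapping factors. Tnrc6c (0.98), the helicase Mov10 (0.93) and Ago3 (0.70) rose among 8 silencing factors. Of the decay adaptors, Btg2 (1.23) and Zfp36 (1.47) rose, and Zfp36l1 (-1.20) and Btg1 (-1.01) fell. Zfp36 was high in P7 cKO sample 1 alone, with 64.2 CPM there and 15.4 and 16.2 CPM in P7 cKO samples 2 and 3, and 10.3, 12.7 and 11.5 CPM in P4 cKO. Exosc1 (0.68) and Dis3 (0.41) rose and Dis3l (-0.76), the cytoplasmic exosome nuclease, fell. All genes named here as rising or falling also passed with length and GC offsets. No LSm ring gene and no stress granule gene passed without offsets. With them the ring gene Lsm7 fell, at -0.76 (adjusted p = 0.00884), against -0.60 (adjusted p = 0.107) without. Nudt12 (0.67, adjusted p = 0.0463) and Gigyf2 (0.51, 0.0222) also rose with offsets and did not pass without.

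In WT, Cpeb1 (1.75), Dnd1 (1.48) and Pum2 (0.86) rose among the 12 repressors, and 8 of the 10 germ cell markers rose with them. Of the 11 decay adaptors, Btg2 (1.60), Rc3h2 (1.52), Rc3h1 (1.17) and Tob2 (0.87) rose, and of 10 stress granule genes, Tia1 (1.24), G3bp2 (1.11) and Caprin1 (1.18). Nudt12 (1.89), Tnrc6b (1.13) and the SKI complex gene Wdr61 (0.82) also rose. Dis3l (-0.96), Dis3l2 (-0.80) and Wtip (-0.84) fell. Of all genes, 11.8% rose between the stages in WT and 9.97% fell. Cpeb1 had 40.5 CPM in P7 WT against 10.9 and 13.2 CPM in P4 WT. Rc3h1, Rc3h2, Wtip, Tia1, Caprin1 and Pum2 did not pass with length and GC offsets (adjusted p = 0.0596 for Rc3h1 to 0.388 for Wtip). Passing with offsets but not without them, the ring gene Lsm5 (-0.92) and Tial1 (-1.32) fell, and Exosc3 (0.75) and Zfp36l2 (0.91) rose. The interaction passed for no gene of the 7 lists.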

How the data were processed

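Total RNA of testis was sequenced from TruSeq libraries, per the labels' protocols. The authors deposited 1 table of raw read counts per gene with exon lengths, per the file headers. Per the submitters' processing notes, reads were handled with STAR 2.7.11a, Subread 2.0.6 (featureCounts), Trim Galore 0.6.10, SAMtools 1.6, MultiQC 1.14 and FastQC 0.12.1, on GRCm38 (mm10). The strand setting is not given in the sources used here. No member shares exon bases with another gene of the table. Most low counts were even (67.8% to 80% of counts under 50), a pattern that counting each mate of a read pair gives, which raises counting noise up to 1.98 times.

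Here, genes were filtered by filterByExpr at its defaults, which kept 18419. TMM factors set the scale, and edgeR 4.0.16 (R 4.3.3) gave the robust quasi-likelihood F test (1 mean per group, no replicate block, 5 residual degrees of freedom, common biological coefficient of variation 0.228). With 1 sample, P7 WT borrowed its spread from the other groups. Two-sided p-values were adjusted over all genes after Benjamini-Hochberg, with a threshold of 0.05. SE is the log2 fold change over the root of F, and intervals are 95%. CPM are counts scaled to 1 M reads with TMM factors. Paralog ratios were tested by exact permutation. GC content came from the longest annotated transcript (24703 genes). The members, the lists and the alternatives were chosen with earlier results of these data known. The text names all members, the list genes past the threshold (up to 4 per list and comparison, by p), Lsm7 and Stra8. It also names list genes that passed with length and GC offsets but not without. A gene of the repressor list is not reported here. Stra8 was at -0.01 at P7 and 0.28 at P4 for cKO against WT, and did not pass.

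The scripts were tested on simulated data. The alternatives were RLE factors, library totals, no filter, a minimum count of 50, DESeq2 1.42.0, limma-voom (limma 3.58.1), the compared groups alone, 10 separate libraries, the replicate number as a block, smooth offsets for exon length and GC content, both together, and leaving out each library.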

Additional observations from a re-analysis of the deposited data

How the results depend on the processing

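With 1 to 3 samples a group and a lone P7 WT sample, the counts of members called rested on the setting, and the causes were not tested beyond what each setting changes. For cKO against WT at P7, 2 members were called, and 1 with library totals, 0 with the compared groups alone, 5 with 10 separate libraries and 0 with length and GC offsets. Leaving out 1 library gave 1 to 2. For cKO against WT at P4, 1 was called, and 0 with RLE factors, library totals or a minimum count of 50, 2 with offsets, and 0 to 2 with 1 library left out. For P7 against P4 in WT, 5 were called, and 8 with 10 separate libraries, 3 with offsets, and 1 to 6 with 1 library left out. For P7 against P4 in cKO, 1 was called, and 3 with library totals or offsets, and 0 to 2 with 1 library left out. For the interaction, 0 were called, and 2 with no filter or DESeq2, 3 with 10 separate libraries, and 0 to 2 with 1 library left out. Whether the replicate numbers pair the samples could not be settled. Deviations from the group mean correlated at -0.19 to 0.34 between libraries of the same number. Of 10 libraries, 5 were closest to their own number, and the number to be met without pairing was not computed. The P7 WT pair differs by about the counting noise, so its correlations say little. The fits of 10 separate libraries and those with the block count this pair as 2 samples. Their calls, over the members and over all genes, may thus rest on too small a spread. With the replicate number as a block, 6 members were called at P7, 1 at P4, 8 in WT, 2 in cKO and 4 for the interaction. With the block and offsets together it was 1, 3, 6, 3 and 1. Some members changed sign. With offsets, and with the block and offsets, the values at P7 were 0.44 and 0.45 for Dcp2, 0.13 and 0.18 for Dcp1a, 0.19 and 0.21 for Ddx6, and 0.29 and 0.28 for Xrn1. Those of Xrn1 were 0.24 and 0.22 at P4, and 0.0512 and 0.0565 for the interaction. In cKO between the stages, Dcp1a was at 0.0135 and 0.0328, and at 0.0858 with library totals, and Edc4 at 0.00207 and 0.0199, and at 0.0918 with library totals. For the interaction, Edc3 was at -0.0052 and -0.0548, and at -0.00513 with limma-voom, and Lsm14b at 0.0369 with library totals. With 1 library left out, the values ran over -0.39 to 0.10 for Dcp1b, -0.42 to 0.0315 for Edc4 and -0.10 to 0.054 for Xrn1 at P4. In cKO between the stages they ran over -0.20 to 0.11 for Dcp1a, -0.0428 to 0.12 for Dcp1b, -0.25 to 0.20 for Edc4 and -0.0733 to 0.16 for Xrn1, and for the interaction over -0.0783 to 0.29 for Dcp1a and -0.13 to 0.31 for Edc3. The log2 differences of the ratio of Dcp1a to Dcp1b ran over -0.30 to 0.0117 at P4 and -0.30 to 0.0113 between the stages in cKO. Those of Lsm14a to Lsm14b ran over -1.05 to -0.75 between the stages in cKO and 0.24 to 0.80 at P4. Of the 21 alternatives, Patl1 passed at P7 in 19, Lsm14a at P7 in 14, Ddx6 at P4 in 11, Lsm14b in cKO in 19 and Dcp2 in WT in 21. The alternatives draw on the same libraries, so these tallies are not independent checks. Patl1 missed at P7 with the compared groups alone and with length and GC offsets.

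Over all genes, 1338 rose and 1791 fell at P7, and 1744 and 1402 did with library totals. At P7, 6905 were called with 10 separate libraries, 7438 with the block, 2061 with the block and offsets, 2012 without P4 cKO library 2, 4921 without P7 cKO library 1 and 961 without P7 cKO library 2. At P4, 891 rose and 760 fell, and 528 and 1544 did with library totals. At P4, 613 were called with offsets, 3008 with DESeq2, 3229 with the compared groups alone, 2895 with 10 separate libraries, 2732 with the block, and 2 to 4157 with 1 library left out. In WT between the stages, 4016 were called, and 7279 with 10 separate libraries, 7812 with the block, 6688 with the block and offsets, 1187 without P4 WT library 1 and 6315 without P7 cKO library 1. In cKO, 2663 rose and 2709 fell, and 3907 and 1818 did with library totals, and 3520 and 3571 were called without P4 cKO libraries 2 and 3. For the interaction 0 genes were called, and 3 with library totals, 431 with no filter, 3105 with 10 separate libraries, 4311 with the block, 2547 with the block and offsets, 716 without P4 WT library 2 and 1455 without P7 cKO library 1. Library totals moved the median of all genes to 0.19 at P7, -0.16 at P4, 0.18 in cKO, -0.11 in WT and 0.33 for the interaction.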
